A study of Mus musculus with 6 samples.

Results

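The miRNAs miR-101, miR-199 and miR-214 were measured with 7 of the 750 miRNA assays on the TaqMan Array Rodent MicroRNA cards, 0.933% of them. The assays were chosen by name, with any species prefix and any letter or arm after the number, and without the assays marked # for the opposite arm of a hairpin. Card A held mmu-miR-101a, mmu-miR-199a-5p, mmu-miR-199a-3p and mmu-miR-214, and card B held mmu-miR-101b, mmu-miR-199b and hsa-miR-214, an assay named for the human miRNA. No measured value entered the choice, although earlier results of these data were known when the names were picked.

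The samples were pools of blastocysts of Kunming mice of China, the embryo stage that implants, cultured in CZB medium and taken from superovulated females. In 3 pools (V1, V2 and V3) the blastocysts were vitrified, a form of freezing without ice crystals, by 30 seconds in a pretreatment solution with ethylene glycol and DMSO and 25 seconds in EDFS30 before liquid nitrogen, and were then thawed in sucrose. In the other 3 pools (F1, F2 and F3) the blastocysts were fresh, and the labels name no genetic change in either group. The deposited table has 1 threshold cycle (Ct) per assay and pool. The labels speak of triplicate measurement, and whether a Ct is 1 well or a summary of several is not given in the sources used here. Since embryos were pooled, a difference between cells and a difference between embryos cannot be seen, and fewer cells of a type and less RNA per cell cannot be told apart.

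A miRNA is cut from a hairpin transcript, either arm of which can be loaded into Argonaute, and it pairs with target mRNAs mainly through its seed near the 5′ end. In the mouse uterus at implantation, miR-101a and the 3′ arm of miR-199a are known for repression of Ptgs2 mRNA, which encodes cyclooxygenase-2, an enzyme of prostaglandin synthesis that implantation needs. miR-101 and miR-214 are also known to repress Ezh2, a histone methyltransferase of Polycomb, and miR-214 is made together with miR-199a from the transcript Dnm3os, which is active in mesenchyme.

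The mature sequences are shown to compare the RNAs that the assay names refer to. They are the mouse sequences of RefSeq (GRCm38.p6), 5′ to 3′, with the seed, bases 2 to 8, in capitals. The names of the miR-101, miR-214 and miR-199b assays give no arm, so that the 3′ arm is shown for them, and the arm that the mmu-miR-199b assay reads is not given in the sources used here.
mmu-miR-101a-3p: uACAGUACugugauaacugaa
mmu-miR-101b-3p: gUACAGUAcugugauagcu
mmu-miR-199a-5p: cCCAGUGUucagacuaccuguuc
mmu-miR-199a-3p: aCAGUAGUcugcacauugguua
mmu-miR-199b-3p: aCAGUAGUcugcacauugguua
mmu-miR-214-3p: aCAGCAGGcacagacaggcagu
The 3′ arms of miR-199a and miR-199b were identical over all 22 bases and so shared a seed. Since the arm read by the mmu-miR-199b assay is not given, it is not taken to read the same RNA as mmu-miR-199a-3p. With the first base of miR-101b set aside, since RefSeq starts it 1 base earlier, miR-101a and miR-101b were the same at 17 of 18 aligned bases and differed by A16G, counted from 1 at the 5′ end of miR-101a. The shift of 1 base places different bases in the 2 to 8 window of each. The seed of miR-214 was shared with mmu-miR-761 and with no other mature mouse miRNA in the table used, and the mmu-miR-761 assay on card B was determined in V2 alone, at a Ct of 34.55.

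The hairpins lay at 6 places in the genome, of which those of Mir199a-2 and Mir214 were neighbours. Mir101a is at chr4:101346945-101347027 on the minus strand, inside the lncRNA gene E130102H24Rik. Mir101b is at chr19:29135279-29135375 on the plus strand, within the span of Rcl1. The 3 hairpins of miR-199 lie within the spans of 3 dynamin genes, with Mir199a-1 at chr9:21496495-21496564 (minus strand) in Dnm2, Mir199b at chr2:32318460-32318569 (plus strand) in Dnm1, and Mir199a-2 at chr1:162217814-162217923 (plus strand) in Dnm3. Mir214 is at chr1:162223368-162223477 on the plus strand, 5445 bases from Mir199a-2, and both are inside the lncRNA gene Dnm3os. Mature miR-199a is the same from Mir199a-1 and Mir199a-2, and the assays cannot tell these genes apart. The 2 neighbouring hairpins are shown with their mature arms in capitals, the 5′ arm first, since 3 of the assays on card A read RNAs of this stretch.
Mir199a-2: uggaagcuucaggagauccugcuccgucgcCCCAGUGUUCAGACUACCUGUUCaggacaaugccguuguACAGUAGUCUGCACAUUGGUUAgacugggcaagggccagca
Mir214: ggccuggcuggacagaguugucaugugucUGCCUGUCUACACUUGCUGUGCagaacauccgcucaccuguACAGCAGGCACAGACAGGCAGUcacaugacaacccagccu

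Each value was a threshold cycle (Ct), the PCR cycle at which the fluorescence of a well crosses a set level, so that a lower Ct means more template, and a well that did not cross it within 40 cycles was undetermined. The pools numbered 1 stood apart from the others. A Ct was determined for 218 miRNA assays in V1 and 140 in F1, against 382 to 409 in the other pools. Of the 7 assays, 5 were determined in V1 and 2 in F1, and all 7 in V2, V3, F2 and F3. All 7 undetermined wells of the 42 therefore belonged to V1 or F1. The 8 assays for the miR-290 to miR-295 cluster, which marks the blastocyst and pluripotent cells, were all undetermined in V1 and in F1, and 7 or 8 were determined in each other pool. Results are for this reason given with all 6 pools and with the pools numbered 2 and 3 alone.

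The earliest of the miR-199 signals came from mmu-miR-199a-3p. Its Ct was 31.99 in V1, 23.69 in V2, 24.45 in V3, 33.37 in F1, 24.67 in F2 and 23.25 in F3. V1 and F1 were late by many cycles, and the vitrified and fresh values overlapped. In the pools numbered 2 and 3, between 76.2% and 83.4% of the determined assays of card A came later than this assay.

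The 5′ arm of the same hairpins gave a late signal. mmu-miR-199a-5p was undetermined in V1 and F1 and had a Ct of 32.86 in V2, 33.29 in V3, 34.41 in F2 and 35.84 in F3. Both vitrified values came earlier than both fresh values, and between 1.75% and 12.4% of the determined assays of card A came later still. The mmu-miR-199b assay was likewise undetermined in V1 and F1, with a Ct of 30.56 in V2, 30.18 in V3, 31.04 in F2 and 30.62 in F3. Its vitrified values were earlier than both fresh values on raw Ct, a pattern whose share over all assays was not computed. They overlapped with them on ΔCt, the Ct less the average of the 4 U6 snRNA wells on that card in that pool, where V3 was at 13.66 and F3 at 13.45. On the ΔCt scale mmu-miR-199b was 12.85 to 14.11 and mmu-miR-199a-3p 6.29 to 8.08 in these 4 pools. Efficiencies of the assays were not measured, so an order of Ct between assays is a description and not a ratio of amounts.

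The assays for miR-214 followed a course like that of mmu-miR-199a-3p. mmu-miR-214 on card A had a Ct of 32.40 in V1, 24.92 in V2, 25.99 in V3, 25.41 in F2 and 24.16 in F3. hsa-miR-214 on card B had a Ct of 31.87 in V1, 24.49 in V2, 24.05 in V3, 25.07 in F2 and 23.64 in F3. Both were undetermined in F1, and V1 was again late. hsa-miR-214 was among the earliest signals of its card, with 87.7% to 90.9% of the determined assays later in the pools numbered 2 and 3.

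The opposite arm of miR-214, read by hsa-miR-214# on card B, was undetermined in V1 and F1. Its Ct was 29.93 in V2, 29.94 in V3, 30.09 in F2 and 29.39 in F3. In the same order it was later than hsa-miR-214 by 5.43, 5.90, 5.02 and 5.74 cycles, and the vitrified gaps overlapped with the fresh ones. Between the groups hsa-miR-214# differed by -0.13 in mean −ΔCt, vitrified minus fresh (SE 1.23, adjusted p = 0.998 by limma). The other opposite-arm assay among these families, mmu-miR-101a#, was undetermined in all 6 pools.

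The miR-101 assays were determined well before the end of the run in the pools numbered 2 and 3, where 64.5% to 69.5% of the determined assays of card A were later than mmu-miR-101a. mmu-miR-101a had a Ct of 30.76 in V1, 25.49 in V2, 26.14 in V3, 25.43 in F2 and 24.97 in F3, and it was undetermined in F1. mmu-miR-101b was determined in every pool, at 30.77 in V1, 26.31 in V2, 26.25 in V3, 32.00 in F1, 26.07 in F2 and 26.15 in F3. Its values in the 4 later pools lay within 26.07 to 26.31, the narrowest range of the 7 assays on the Ct scale. In these 4 pools both vitrified values of either assay were later than both fresh values on raw Ct, for mmu-miR-101b by no more than 26.25 in V3 against 26.15 in F3. The share of all assays with this pattern on raw Ct was not computed. On ΔCt, however, mmu-miR-101a was at 8.39 in V2 between 8.84 in F2 and 8.01 in F3, and mmu-miR-101b at 8.59 in V2 was earlier than both fresh pools and at 9.74 in V3 later than both.

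**Figure D1:**
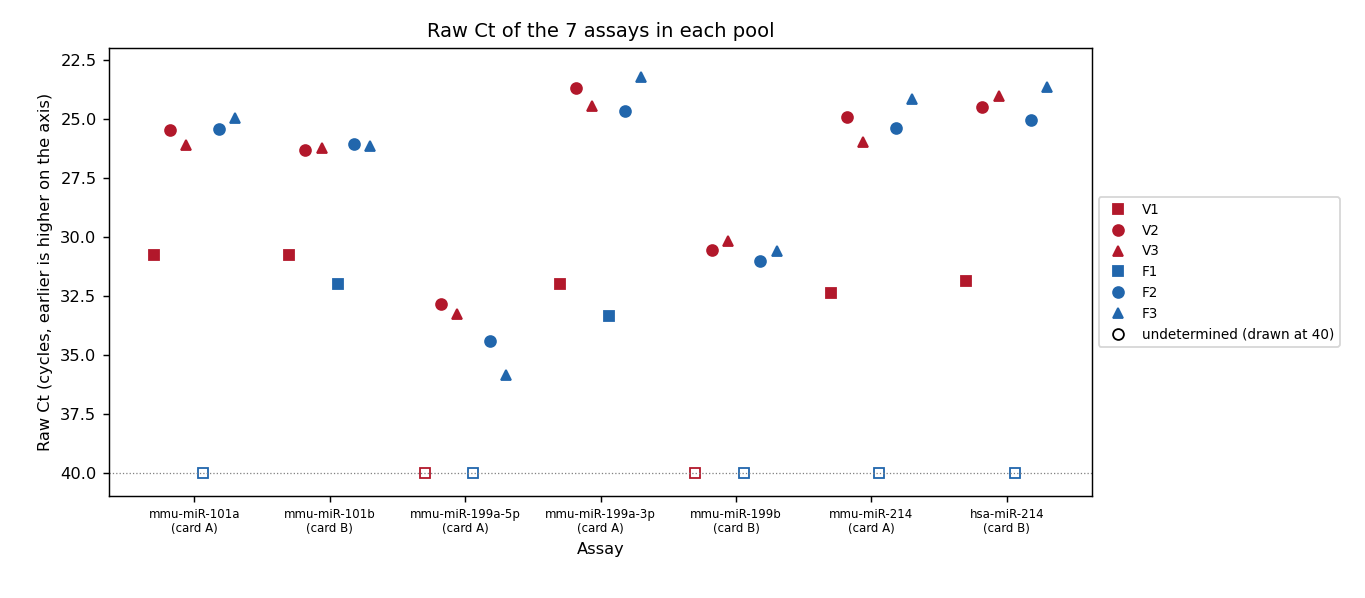
Raw Ct (cycles, axis turned so that earlier is higher) of the 7 assays in each vitrified (red) and fresh (blue) pool, with the pool number as the symbol and open symbols at 40 for undetermined wells. The squares of V1 and F1 lie below the others or at 40, and mmu-miR-199a-5p has the latest determined Ct, 35.84 in F3.

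The lateness of the pools numbered 1 was uneven over these miRNAs. Over the 80 assays of card A determined in all pools, V1 exceeded the average Ct of V2 and V3 by a median of 4.64 cycles (interquartile range 2.24 to 6.48). mmu-miR-101a was later by 4.95 cycles, mmu-miR-214 by 6.95 and mmu-miR-199a-3p by 7.92, and 92.5% of the 80 assays were less late than mmu-miR-199a-3p. On card B, where the median over 42 assays was 1.80 cycles, mmu-miR-101b was later by 4.49 and hsa-miR-214 by 7.60. In F1 the medians were 6.38 cycles on card A and 1.67 on card B, against 9.41 for mmu-miR-199a-3p and 5.89 for mmu-miR-101b. mmu-miR-101a in V1 thus lay near the median of its card, and the other assays were later than the median by more. The controls were not shifted alike. On card A the mean U6 Ct was 17.82 in V1 and 17.08 in F1, against 16.59 to 17.10 in the other pools. snoRNA202 on that card was at 25.90 in V1 and 27.47 in F1, against 17.79 to 18.22 in the others. A ΔCt against U6 therefore does not remove the lateness of V1 and F1. The cause was not tested.

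To ask whether vitrification changed these miRNAs, the mean −ΔCt of vitrified pools was compared with that of fresh pools, a difference on the log2 scale called the log2 fold change. None of the 7 assays passed the test. mmu-miR-199a-5p was the assay with the largest difference relative to its error, with higher values in both vitrified pools that had a Ct, and its adjusted p did not pass. By limma with Benjamini-Hochberg adjustment over 335 assays, 0 of 7 had an adjusted p under 0.05, where 0% of all assays did. At an unadjusted p under 0.05 the count was again 0 of 7, against 1 of 335 (0.299%) over all assays. The median log2 fold change was 0.52 over the 7 assays and -0.05 over the 335, with 4 of the 7 above 0.

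For mmu-miR-199a-5p the ΔCt was 15.76 in V2 and 16.32 in V3, and the fresh pools had 17.82 (F2) and 18.89 (F3). The vitrified mean was 16.04 ± 0.398 (SD, n = 2) and the fresh mean 18.35 ± 0.752 (SD, n = 2), and the log2 fold change was 2.31 with a standard error of 1.19 and a 95% interval of -0.90 to 5.52 (adjusted p = 0.998, limma). The exact permutation test over pools, 2-sided, gave p = 0.333, the smallest it allows with 2 pools against 2. It was the 1 assay of the 7 whose determined values were all higher in vitrified pools, a pattern that 10.1% of the 335 assays showed.

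For mmu-miR-199a-3p the log2 fold change was 0.81 with a standard error of 3.20 and a 95% interval of -6.92 to 8.54 over all 6 pools. That width came with a spread of 6.29 to 16.29 in ΔCt within the fresh pools. For mmu-miR-199b the log2 fold change was 0.52, with an interval of -2.64 to 3.69. With the snoRNA controls in place of U6 as reference (snoRNA202 alone on card B), the values of these assays turned sign, to -1.06 and -0.27. Both intervals hold 0 and also differences of several cycles in either direction, so that a change within them was not detectable at this number of pools.

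mmu-miR-214 and hsa-miR-214 had log2 fold changes of -2.46 (95% interval -8.19 to 3.27) and -2.20 (-8.55 to 4.16). Here the late values of V1 entered the vitrified mean while F1, undetermined, was left out of the fresh mean. With undetermined wells set to 40 cycles the signs turned, to 2.51 and 3.07, and without V1 hsa-miR-214 was at 0.16. mmu-miR-101a behaved in the same way, at -1.74 (-5.94 to 2.46) with undetermined wells excluded and 3.09 with them at 40. mmu-miR-101b, which had a Ct in every pool, was at 0.60 (-4.43 to 5.63). Its sign also turned, to -1.42 without F1 and to -0.78 with snoRNA202 as reference. It was at -0.34 without V2. The directions of mmu-miR-101a and both miR-214 assays thus turned with the treatment of the undetermined wells of F1, and that of mmu-miR-101b with single pools and with the reference.

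In the pools numbered 2 and 3 alone, the intervals were narrower for every one of the 7 assays. mmu-miR-199a-5p had a log2 fold change of 2.31, or 4.97-fold, with a standard error of 0.67 and a 95% interval of 0.59 to 4.04. Its p was 0.0182 before and 0.711 after Benjamini-Hochberg adjustment in limma, so that it was 1 of 7 assays past an unadjusted 0.05, against 4.91% of the 326 assays tested there. Again it was the only one of the 7 whose vitrified and fresh values did not overlap, and 18.1% of all assays had higher, non-overlapping vitrified values.

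The other 6 assays lay near 0 in these pools. The log2 fold change was 0.15 for mmu-miR-199a-3p (95% interval -2.01 to 2.31), 0.16 for hsa-miR-214 (-1.89 to 2.20) and -0.40 for mmu-miR-214 (-2.58 to 1.77). It was -0.35 for mmu-miR-101a (-2.04 to 1.34), -0.10 for mmu-miR-101b (-1.80 to 1.60) and 0.52 for mmu-miR-199b (-1.13 to 2.18). Differences past the ends of these intervals lie outside the 95% range, and smaller ones were not detectable with 2 pools against 2. The median over the 7 was 0.15, against -0.02 over the 326 assays.

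**Figure D2:**
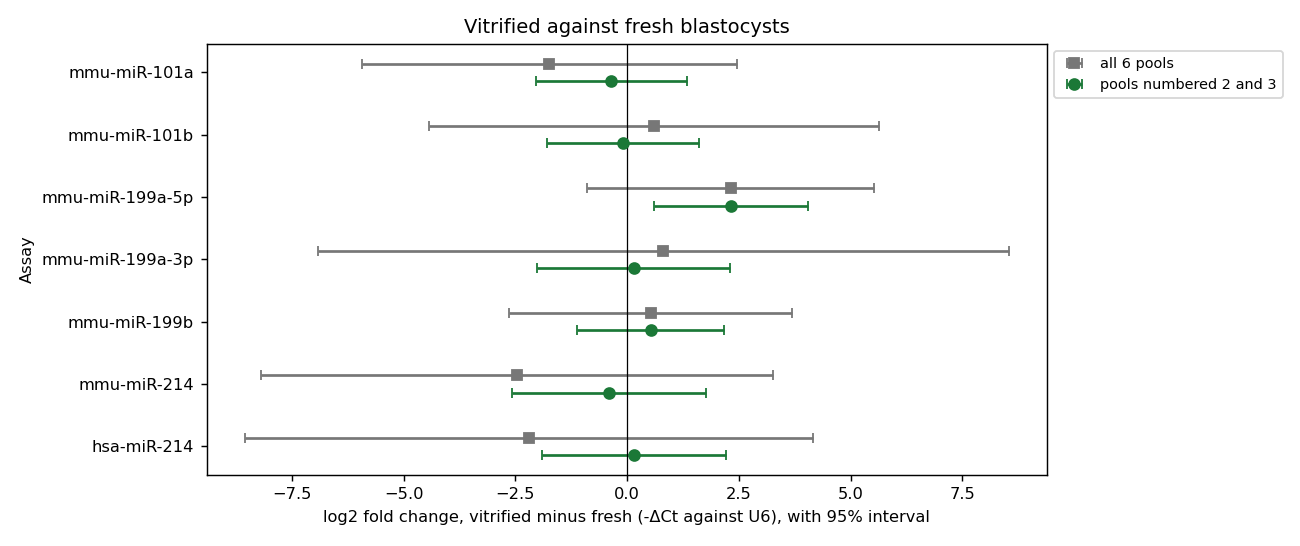
log2 fold change of each assay, vitrified minus fresh on −ΔCt against U6, with 95% intervals from limma for all 6 pools (grey squares) and for the pools numbered 2 and 3 (green circles). Every grey interval crosses 0, and with the pools numbered 2 and 3 the interval of mmu-miR-199a-5p, 0.59 to 4.04, is the one that does not.

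Differences between assays within a pool do not depend on U6 when both are on the same card. The 2 arms of miR-199a did not keep a fixed gap. mmu-miR-199a-5p came later than mmu-miR-199a-3p by 9.18 cycles in V2 and 8.84 in V3, while the fresh gaps were 9.74 (F2) and 12.59 (F3). Vitrified minus fresh, the mean gap differed by -2.16 cycles (95% interval -8.33 to 4.01), with p = 0.333 in the exact permutation test, again the smallest possible, and 0.667 adjusted over the 5 differences tested. F3 had the latest mmu-miR-199a-5p and the earliest mmu-miR-199a-3p of all pools, and the gap of F2 lay closer to those of V2 and V3 than to that of F3. The gap of F3 uses a mmu-miR-199a-5p Ct of 35.84, late in the run. With Ct under 35 only, which leaves out F3, the difference between the groups was -0.74 cycles.

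mmu-miR-214 and mmu-miR-199a-3p kept a gap of 0.41 to 1.54 cycles. Mir214 and Mir199a-2 are neighbours on chromosome 1, but mature miR-199a also comes from Mir199a-1 on chromosome 9. mmu-miR-214 was later by 0.41 cycles in V1, 1.23 in V2, 1.54 in V3, 0.75 in F2 and 0.91 in F3. Its average over the pools was 0.969 ± 0.435 cycles (SD, n = 5), although V1 was late by several cycles in both assays. Vitrified and fresh pools overlapped through V1 and differed by 0.23 cycles (95% interval -1.17 to 1.63, exact permutation p = 0.8). In the pools numbered 2 and 3 both vitrified gaps were larger than both fresh gaps, and the difference was 0.55 cycles (exact permutation p = 0.333, the smallest possible with 2 pools against 2). The share of assay pairs with such a separation was not computed. Against the 5′ arm from the same hairpins, the difference of mmu-miR-214 was -7.95 cycles in V2, -7.30 in V3, -8.99 in F2 and -11.68 in F3. The group means differed by 2.72 cycles (exact permutation p = 0.333, adjusted 0.667), and it shares the mmu-miR-199a-5p values with the gap between the arms. Both differences depended on single fresh pools. Without F3 they were -0.74 for the gap between the arms and 1.37 for mmu-miR-214 minus mmu-miR-199a-5p, and without F2 they were -3.59 and 4.06.

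Across the 2 cards the differences are on ΔCt. mmu-miR-101b was later than mmu-miR-101a by 0.17 in V1, 0.20 in V2, 0.57 in V3, 0.29 in F2 and 0.98 in F3, a mean of 0.442 ± 0.337 cycles (SD, n = 5). Mir101a and Mir101b lie on different chromosomes. The SD of mmu-miR-214 minus mmu-miR-199a-3p was 0.435 on Ct within card A, so the SDs are on different scales. The spread of such gaps over other pairs of assays was not computed, and a link between a steady gap and neighbouring hairpins was not tested. Between the groups the gap of the miR-101 assays differed by -0.32 cycles (95% interval -1.29 to 0.64, exact permutation p = 0.4). The human-named assay hsa-miR-214 came earlier than mmu-miR-214, with differences of -0.37 in V1, -1.04 in V2, -1.50 in V3, -0.69 in F2 and -0.73 in F3. Both read miR-214 by name, and their gap differed by -0.26 cycles between the groups (95% interval -1.60 to 1.09, exact permutation p = 0.8). In the pools numbered 2 and 3 alone this difference was -0.56 cycles, and the vitrified and fresh gaps did not overlap (exact permutation p = 0.333, the smallest possible with 2 pools against 2). The share of assay pairs with such a separation was not computed, and this gap also depends on the U6 wells of both cards.

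**Figure D3:**
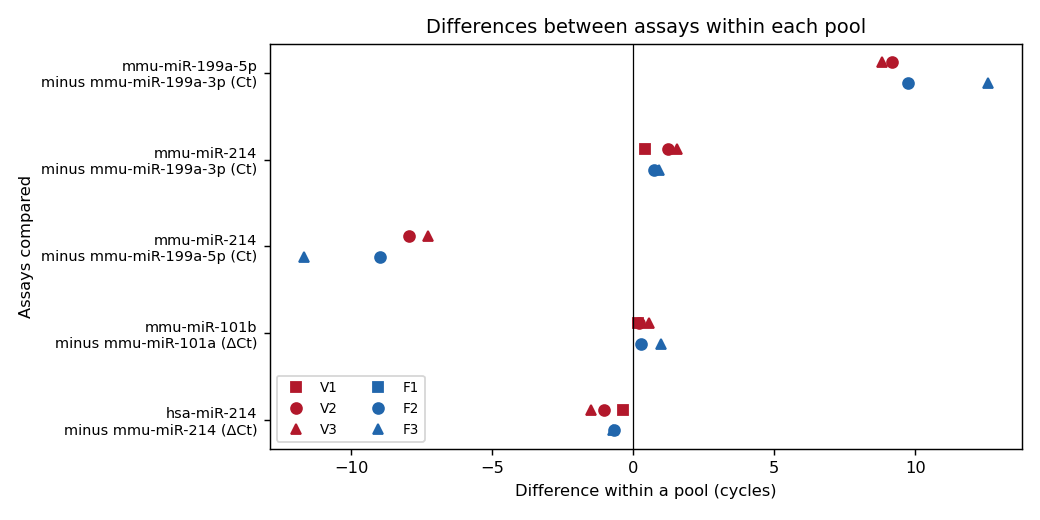
Difference between a pair of assays within each pool, in cycles of Ct on the same card or of ΔCt across the cards, for vitrified (red) and fresh (blue) pools with the pool number as the symbol. The gap between the arms of miR-199a runs from 8.84 to 12.59 cycles, while mmu-miR-214 minus mmu-miR-199a-3p stays between 0.41 and 1.54. The 12.59 of F3 uses a late mmu-miR-199a-5p Ct of 35.84.

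Over the 4 pools in which all 7 assays were determined, 4 of them (mmu-miR-101a, mmu-miR-199a-3p and both miR-214 assays) had their highest level in F3 and the other 3 in V2. Centred on its mean over these pools, the −ΔCt of mmu-miR-199a-3p was 0.53 in V2, -0.37 in V3, -0.97 in F2 and 0.82 in F3. mmu-miR-214 was at 0.40, -0.81, -0.61 and 1.01 in the same order. For hsa-miR-214 the highest pool was likewise F3, at 0.75, and the lowest F2, at -0.91. mmu-miR-199a-5p differed, at 1.44 in V2, 0.88 in V3, -0.62 in F2 and -1.69 in F3, so that F3 was its lowest pool.

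Some markers of other cells had a similar order of pools. The marker list of mesenchyme, smooth muscle and endothelium (miR-143, miR-145, miR-126-3p and miR-10b, 5 assays) had a median centred −ΔCt of 0.11 in V2, -0.48 in V3, -0.91 in F2 and 1.39 in F3. Its order of pools from the top began with F3 and V2, as did those of mmu-miR-101a, mmu-miR-199a-3p and both miR-214 assays. Of its 5 assays, 4 were highest in F3, from 0.40 for mmu-miR-10b on card A to 1.95 for mmu-miR-145. The mmu-miR-10b assay on card B went against them, at 1.03 in V2, 0.26 in V3, -0.67 in F2 and -0.62 in F3. The miR-290 to miR-295 list ran the other way, at -1.15 in V2, 1.15 in V3, 1.19 in F2 and -1.05 in F3. Of the 5 blood cell assays with a Ct in these pools, 2 were also highest in F3, 2 in V3 and 1 in V2. mmu-miR-200a, from the implantation list described below, likewise had its earliest Ct in F3 (21.49, against 22.67 in V2, 23.22 in V3 and 22.31 in F2). A high level in F3 was thus not particular to mesenchymal markers, and its share over all assays was not computed.

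As a summed level in thousandths of that of U6, from 2 to the power −ΔCt, the mesenchymal markers stood at 1.84, 157 and 99.6 in V1 to V3, and at 0.576, 73.6 and 517 in F1 to F3. All 5 were determined in every pool but F1, where 3 were. The miR-290 to miR-295 sums were 0 in V1 and F1, 5.51 in V2, 25.1 in V3, 20.9 in F2 and 6.66 in F3. Blood cell markers (6 assays) were determined in 4 to 6 assays per pool, with sums of 9.19, 62.6, 69.7, 17.6, 58.3 and 68.2 in V1 to V3 and F1 to F3. These sums assume a doubling per cycle in every assay, which was not measured, and they count miR-10b and miR-292-3p from both cards. A sum can rest mostly on its earliest assay, which for the mesenchymal markers in F3 was mmu-miR-145 (Ct 18.52). They are thus descriptions and not amounts. None of the 5 mesenchymal assays passed the adjusted test between the groups. The part of such cells in the levels of these miRNAs, and the likeness of the profiles over 4 pools, was not tested.

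**Figure D4:**
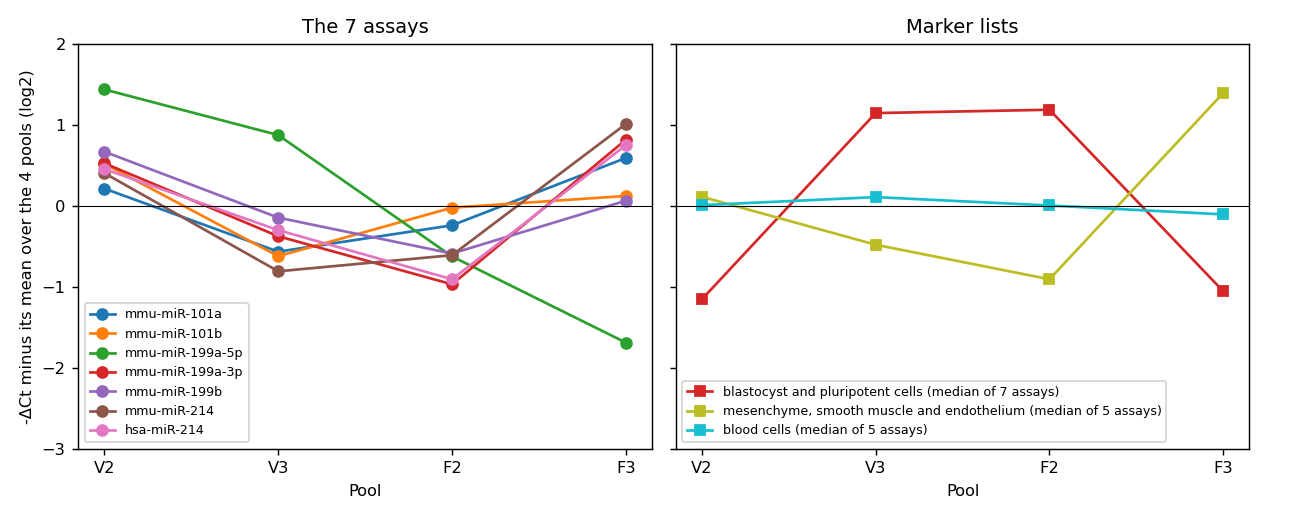
−ΔCt of each of the 7 assays (left) and the median over each marker list (right), in log2 units after centring on the mean over V2, V3, F2 and F3. mmu-miR-101a, mmu-miR-199a-3p and both miR-214 assays are highest in F3, as is the median of the mesenchymal list (1.39), while mmu-miR-199a-5p is lowest there (-1.69).

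For the 2 assays with a Ct in all 6 pools, the assays of most similar profile on the same card were sought, by the root mean square difference of centred −ΔCt. Nearest to mmu-miR-199a-3p among 79 assays were mmu-miR-125b-5p at 0.41 and mmu-miR-30c at 0.59, where the median over the 79 was 1.79. mmu-miR-125b-5p had a Ct of 29.71 in V1, 22.74 in V2, 22.89 in V3, 32.13 in F1, 23.36 in F2 and 21.92 in F3, which is the order of pools of mmu-miR-199a-3p, with F3 earliest and F1 latest. Nearest to mmu-miR-101b among 41 assays were hsa-miR-93# at 0.25 and mmu-miR-674# at 0.52, with a median of 1.81. These are descriptions over 6 pools, which include the late pools numbered 1.

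A further list of 15 miRNAs linked to implantation in the uterus or embryo, drawn from general knowledge, was set beside these families. Of its 14 assays tested over all pools, 0 passed the adjusted test and 0 an unadjusted p under 0.05, with 7 above and 7 below 0 and a median of 0.01. mmu-let-7a, of the let-7 family that is low in pluripotent cells, was undetermined in V1 and F1 like mmu-miR-199a-5p. Its Ct was 26.12 in V2, 25.66 in V3, 27.38 in F2 and 28.39 in F3, with both vitrified values earlier than both fresh values. With the pools numbered 2 and 3 its log2 fold change was 2.26 (SE 0.595), and it was the 1 assay of the list past an unadjusted 0.05 there, with an adjusted p of 0.711 in limma. Over all 326 assays 4.91% passed that threshold and 18.1% had higher, non-overlapping vitrified values. Of the others named from the list, mmu-miR-21 was at 0.52, mmu-miR-30d at -0.23, mmu-miR-145 at -0.76 and mmu-miR-181a at -0.18 in the same pools, none past that threshold. The other 9 tested lay between -0.78 and 1.15, and none of them passed it.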

How the data were processed

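Total RNA (30 ng per pool) was reverse transcribed, pre-amplified and run on cards A and B. The values that the authors deposited are raw Ct from RQ Manager, without normalization. Ct is a cycle number, log2-like with its sign reversed. A deposited table of the authors' fold changes and p-values was not used. Groups and pool numbers came from the sample labels. The labels do not say whether pools came from separate collections, so p-values measure the spread between these pools. The number of pools limits precision, and no depth applies.

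Undetermined wells and Ct of 40 or more were excluded, and ΔCt was taken against the mean of the 4 U6 wells of the card and pool. Assays with at least 2 determined wells per group were compared by limma 3.58.1 (lmFit, eBayes) in R 4.3.3, with Benjamini-Hochberg adjustment over all assays tested. Differences between assays were compared by 2-sided exact permutation tests over pools, in Python 3.11.15 with scipy 1.17.1, numpy 2.4.6 and pandas 2.3.3. The fit was checked on simulated assays of known change, with the same random spread in every pool. The lateness of V1 and F1 was not simulated, so that check does not cover it.

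Besides the 7 assays, those named were their opposite-arm assays, the 2 nearest profiles, and listed markers and implantation miRNAs. The members and lists were chosen with earlier results of these data known. Pools of one number were not described as prepared together. Their deviations from the group means over 122 assays correlated at r = 0.80 (V1 and F1), 0.78 (V2 and F2) and 0.67 (V3 and F3), and V2 with F3 at 0.72 and V3 with F2 at 0.74, so that the numbers separated pools 1 from the rest. Alternatives were other references, detection limits, pool sets, a replicate block and other tests. RefSeq (GRCm38.p6) gave sequences and positions, as the deposited values name no build.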

Additional observations from a re-analysis of the deposited data

How the results depend on the processing

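None of the 7 assays had an adjusted p under 0.05 under any of the 17 alternatives (limma, or the methods' t-test with the same adjustment). Of 99 recomputed log2 fold changes, 81 kept their direction and 18 turned it. mmu-miR-199a-5p was above 0 in all 11 of its own (1.50 to 2.65, lowest adjusted p 0.711), and its fold change could not be computed with a limit of 35 cycles or without V2, V3, F2 or F3. It was the 1 of the 7 past an unadjusted 0.05 with a ceiling of 35 cycles (0.533% of all assays passed there), in the pools numbered 2 and 3 (4.91%) and without V1 (3.07%). With the ceiling, its values in V1, F1 and F3 were all the imposed 35 cycles, so that result does not rest on measured values alone.

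With undetermined wells set to 40 cycles, the sign turned for mmu-miR-101a (3.09), mmu-miR-214 (2.51) and hsa-miR-214 (3.07), and for the differences mmu-miR-214 minus mmu-miR-199a-3p (-1.70), mmu-miR-214 minus mmu-miR-199a-5p (-0.72) and mmu-miR-101b minus mmu-miR-101a (2.49). With a ceiling of 35 cycles it turned for the same 3 assays (1.42, 0.84 and 1.40). The snoRNA reference was snoRNA135 and snoRNA202 on card A and snoRNA202 alone on card B. It moved the median of all assays from -0.05 to -0.78. With it the sign turned for mmu-miR-101b (-0.78), mmu-miR-199a-3p (-1.06) and mmu-miR-199b (-0.27). With the pools numbered 2 and 3 it turned for mmu-miR-101b (-0.10) and hsa-miR-214 (0.16). The cause was not tested.

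With the pool number as a replicate block, hsa-miR-214 was at 0.16 in place of -2.20, mmu-miR-199a-5p stayed at 2.31 (adjusted p = 0.989, limma with Benjamini-Hochberg), and no call changed.

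Leaving out each pool in turn, the log2 fold change ran from -1.42 (without F1) to 1.92 for mmu-miR-101b, from -2.23 (without F1) to 3.19 for mmu-miR-199a-3p, from -3.56 to 0.16 (without V1) for hsa-miR-214, and from -2.63 (without V2) to 2.21 (without F3) for the median over the assays that could be fitted. The differences ran from -3.59 to -0.74 cycles for mmu-miR-199a-5p minus mmu-miR-199a-3p, from 1.37 to 4.06 for mmu-miR-214 minus mmu-miR-199a-5p, from -0.0105 to 0.55 cycles for mmu-miR-214 minus mmu-miR-199a-3p, from -0.66 to 0.0216 for mmu-miR-101b minus mmu-miR-101a, and from -0.56 to 0.00516 for hsa-miR-214 minus mmu-miR-214.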
